A study of Mus musculus with 4 samples.

Results

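Kit-positive sinusoidal endothelial cells of the mouse liver were taken from single-cell libraries of liver non-parenchymal cells by a rule on unique molecular identifiers (UMIs, each counting 1 captured RNA molecule). Cells were kept from 500 UMIs and 300 genes upwards if mitochondrial transcripts made up less than 15%. A member then needed at least 1 UMI in at least 3 of the 6 sinusoidal endothelial genes Stab2, Kdr, Gpr182, Oit3, Ptprb and Fcgr2b, 0 UMIs of the leukocyte gene Ptprc, at most 1 UMI of the Kupffer cell gene Clec4f, at least 1 UMI of Kit, 0 UMIs of Ltbp4 and under 2 UMIs of the central vein genes Rspo3 and Wnt9b together. It found 1293 members among 32150 kept cells, of which 877 of 10467 were in the HFD_EXE library, 90 of 11068 in the HFD_sed library and 326 of 10615 in the S library. The members were thus chosen by the measured UMIs of these 12 genes, whose values are a description and were left out of every count.

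All 3 libraries came from C57BL/6J mice aged 30 weeks, were titled HFD_EXE5, HFD_sed2 and S1, and hold 1 library per group; the series title names a high-fat diet (HFD) and exercise interventions, and the letters S, sed and EXE are not spelled out in the labels. Livers were digested enzymatically, erythrocytes were lysed and dead cells depleted, and the suspension was run on the 10x Genomics 3′ version 3 chemistry. The labels do not say whether a library holds 1 animal or several, and another group, E, was not analysed here. Group, animal, dissociation and sequencing run therefore cannot be told apart, no p-value between libraries is given, and the intervals below cover counting error only.

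Liver sinusoids are lined by a fenestrated endothelium that takes up macromolecules through scavenger receptors and changes its expression along the path of the blood from the portal tract to the central vein. Central-side cells release Wnt2, which maintains the pericentral programme of neighbouring hepatocytes, whereas portal-side cells carry ephrin-B2 and the Notch ligand Dll4. Kit, the receptor tyrosine kinase for stem cell factor, is a known marker of the central side of the mouse sinusoid.

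The libraries held 11280 barcodes (HFD_EXE), 11752 (HFD_sed) and 11660 (S), more than the 5000 to 6000 captured cells that the labels give. The members summed to 4031615 UMIs in HFD_EXE, 446111 in HFD_sed and 1610283 in S, with medians of 4376, 4787.5 and 4484 UMIs per cell and median mitochondrial shares of 4.11%, 4.37% and 4.63%. No barcode was shared between members of different libraries, while whole libraries shared 30 to 43 barcodes pairwise. A doublet score (Scrublet) placed 2, 2 and 0 members in the top 3% of their library. HFD_sed thus supplies the fewest cells and UMIs.

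The sinusoidal part of the label was checked on genes outside the rule, and the 3 shown here were higher in members than in the cells outside the sinusoidal gate of each library. Stab1, a scavenger receptor, was at 1208 CPM in HFD_EXE, 1006 CPM in HFD_sed and 1331 CPM in S (CPM, counts per 1000000 UMIs), against 369, 149 and 411 CPM in the cells outside the sinusoidal gate of the same libraries. Clec4g, a lectin of the sinusoid, was at 2579 CPM in HFD_EXE, 1598 CPM in HFD_sed and 2464 CPM in S, and the secreted nuclease Dnase1l3 was at 2594 CPM in HFD_EXE, 1867 CPM in HFD_sed and 2728 CPM in S. Their levels outside the gate were 855, 256 and 846 CPM for Clec4g and 835, 269 and 897 CPM for Dnase1l3 in the same order of libraries. Vwf, a marker of larger vessels, had a UMI in 6 of 877 members in HFD_EXE, 1 of 90 in HFD_sed and 4 of 326 in S. The whole list of 17 vein, artery and lymphatic markers, however, was higher in members than outside the gate. It summed to 1167, 802.5 and 822.8 CPM in HFD_EXE, HFD_sed and S, against 888.3, 475 and 787.5 CPM outside. That list includes Gja4 and Efnb2, which are also on the zonation lists below. Of 10 markers of mast cells and innate lymphoid cells, the other liver cells that can carry Kit, 6 were at 0 UMIs in HFD_EXE, 7 in HFD_sed and 8 in S, and the mast cell genes Cma1, Tpsb2, Ms4a2 and Fcer1a were at 0 in each library. Outside the gate 0, 1 and 2 of the 10 were at 0, Tpsb2 among them in HFD_sed and S. In gate cells without Kit but with Ltbp4, 5, 5 and 7 were at 0, so such zeros are not particular to members. Cholangiocyte markers summed to 189.5, 24.7 and 3.11 CPM, stellate cell markers to 115, 101 and 114 CPM and neutrophil markers to 213, 71.7 and 78.9 CPM in HFD_EXE, HFD_sed and S. Outside the gate the same lists summed to 189.6, 254 and 129 CPM, to 199.6, 43.1 and 293 CPM and to 7933, 2121 and 4328 CPM. Of the 3 members of the marker set that the rule itself used, Stab2 was at 1173, 899 and 1269 CPM, Gpr182 at 753.5, 990.8 and 985.5 CPM and Oit3 at 971.8, 1192.5 and 965.7 CPM in HFD_EXE, HFD_sed and S.

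Kit itself was at 707 CPM in HFD_EXE members, 321 CPM in HFD_sed members and 679 CPM in S members. Exactly 1 Kit UMI carried 31.5% of members into the class in HFD_EXE, 62.2% in HFD_sed and 29.1% in S, and 37, 0 and 10 members had 10 or more. Most HFD_sed members thus sat at the edge of the rule. Just outside it lay 777, 108 and 338 cells with Kit and 1 UMI of Ltbp4, and 133, 23 and 87 cells left out for their vein genes. Of 3791, 697 and 1924 gate cells with Kit, 2537, 514 and 1322 had at least 1 UMI of Ltbp4 and passed the vein limit. Their medians were 6281, 6305 and 7045 UMIs. Most gate cells with Kit were thus not members and lie outside the classes compared below, where Kit-positive cells means the members only.

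Members made up 16.5% of the sinusoidal gate in HFD_EXE (95% Clopper-Pearson interval 15.5% to 17.5%), 4.24% in HFD_sed (3.42% to 5.19%) and 12.3% in S (11.1% to 13.6%). The share depends on depth. Each cell was thinned to 2000 UMIs, with shallower cells left out (747, 163 and 265 gate cells), and the whole rule was applied again. The gate then held 5135, 2342 and 3691 cells, and the shares were 27.9%, 6.11% and 23.3%. Thinning also lowers the counts of Ptprc, Clec4f and Ltbp4, so that cells left out on full counts can enter. The part of each step in the shift was not tested. A Kit UMI occurred in 71.3% of gate cells in HFD_EXE, 32.8% in HFD_sed and 72.5% in S (medians of 5381, 5423 and 6095.5 UMIs per cell). In B-like cells, which should lack Kit, the share was 12.9%, 3.52% and 11.1% (medians of 3747, 3107.5 and 3930 UMIs), and in Kupffer-like cells it was 25%, 6.41% and 28.4%. With the cells chosen on full counts and then thinned to 2000 UMIs, the gate stood at 53%, 15.5% and 50.2% and the B-like cells at 7.10%, 1.01% and 5.83%. Kit in the gate was thus above this background in every library, and lowest in HFD_sed both as a share and as a level (454, 97.1 and 430 CPM in the whole gate).

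The central side of the label was examined by setting members against Kit-negative sinusoidal cells of the same 3 libraries, with UMIs summed per library and class and the library kept as a block (edgeR quasi-likelihood test, Benjamini-Hochberg adjustment over all genes, threshold 0.05). Against Kit-negative cells that also lacked Ltbp4 (585 cells in HFD_EXE, 254 in HFD_sed and 236 in S), 61 of 9217 genes rose, 0.662% of those tested, and 467 fell, 5.07%. Of 11 measured central-side genes 7 rose and none fell (median log2 fold change 0.71, against 0.01 over all genes), among them Lhx6, a homeobox factor, Cdh13, a membrane-anchored cadherin (log2 fold change 1.12, SE 0.18, adjusted p = 0.000365), and Wnt2 (log2 fold change 0.95, SE 0.15, adjusted p = 0.000278). Of 13 portal-side genes Ltc4s rose, and Msr1 and Clu fell. The genes that fell included markers of other cells: 19 of 20 hepatocyte markers (median log2 fold change -2.08), 5 of 5 erythroid, 9 of 11 Kupffer and 6 of 7 B cell markers, with Rgn, Gsta3, Ephx2 and Akr1c6, all liver metabolic genes, among the largest changes. With both classes limited to cells of 3000 to 8000 UMIs, 9 genes rose and 107 fell, and Wnt2 and Cdh13 were the central-side genes still called.

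The Kit-negative, Ltbp4-negative cells were shallow, with medians of 1458, 2646 and 1638.5 UMIs, and their hepatocyte markers summed to 12110, 2454 and 8855 CPM, against 1833, 1027 and 2617 CPM in members. Their erythroid markers summed to 16180, 133 and 5776 CPM, against 1712, 103 and 445 CPM in members. The part of these other cells' RNA and of depth in that contrast was not tested. A second contrast, chosen after seeing this, therefore took Kit-negative cells with at least 1 UMI of Ltbp4, which were slightly deeper than the members (887, 1081 and 473 cells, medians of 4802, 5261 and 5378 UMIs) and whose hepatocyte markers summed to 4939, 1096 and 2300 CPM. In it, 62 of 11470 genes rose, 0.541%, and 108 fell, 0.942%, and none of the 20 hepatocyte markers passed the test (median log2 fold change -0.54). Without the HFD_EXE library, 12 genes rose and 15 fell, and without HFD_sed 220 rose and 289 fell. The classes of this contrast differ by rule in Ltbp4 as well as in Kit.

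Wnt2 was at 532 CPM in HFD_EXE, 229 CPM in HFD_sed and 615 CPM in S in Kit-positive cells, against 201 CPM in HFD_EXE, 91.2 CPM in HFD_sed and 248 CPM in S in Kit-negative, Ltbp4-positive cells. It was higher in Kit-positive cells in 3 of 3 libraries (fold 2.55, log2 fold change 1.35, SE 0.10, adjusted p = 1.54e-05, edgeR). Cdh13 was at 170.2 CPM in HFD_EXE, 69.5 CPM in HFD_sed and 222 CPM in S, against 77.3 CPM in HFD_EXE, 33.1 CPM in HFD_sed and 81.5 CPM in S in Kit-negative, Ltbp4-positive cells (fold 2.37, log2 fold change 1.24, SE 0.11, adjusted p = 4.16e-05, edgeR). For both genes the library with the lowest Kit-positive level, HFD_sed, was also the lowest among Kit-negative cells, so that the order of libraries was the same in both classes.

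Lhx6 was at 28.8 CPM in HFD_EXE, 17.9 CPM in HFD_sed and 50.3 CPM in S, against 5.09 CPM in HFD_EXE, 2.1 CPM in HFD_sed and 5.56 CPM in S in Kit-negative, Ltbp4-positive cells. It was the steepest of the central-side genes (log2 fold change 2.83, SE 0.24, adjusted p = 3.49e-05, edgeR), and its HFD_sed level rests on 8 UMIs. Dkk3, a secreted Dickkopf family protein, rose (log2 fold change 0.99, SE 0.13, adjusted p = 0.000865, edgeR), as did Plpp1, a lipid phosphate phosphatase (log2 fold change 0.56, SE 0.10, adjusted p = 0.00922, edgeR), and Rab3b, a small GTPase of secretory vesicles (log2 fold change 1.43, SE 0.20, adjusted p = 0.00199, edgeR). Rab3b could not be fitted without HFD_EXE or without S. In all, 6 of 12 measured central-side genes rose and none fell (median log2 fold change 0.50, against -0.00 over all genes), where 0.541% of all genes rose and 0.942% fell. Thbd (log2 fold change 0.22, SE 0.15, adjusted p = 0.785), Gja4 (log2 fold change 0.18, SE 0.17, adjusted p = 0.862) and Cyp26b1 (log2 fold change -0.08, SE 0.21, adjusted p = 0.988) did not pass the edgeR test.

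On the portal side, 9 of 13 measured genes fell and 1 rose (median log2 fold change -0.62, against -0.00 over all genes). Of all genes in this contrast, 0.942% fell and 0.541% rose. Msr1, the class A macrophage scavenger receptor, was at 91.5 CPM in HFD_EXE, 159 CPM in HFD_sed and 69.6 CPM in S in Kit-positive cells, against 357 CPM in HFD_EXE, 411 CPM in HFD_sed and 333 CPM in S in Kit-negative, Ltbp4-positive cells (log2 fold change -1.90, SE 0.14, adjusted p = 1.54e-05, edgeR). Ntn4, a laminin-binding netrin, was at 179.8 CPM in HFD_EXE, 565 CPM in HFD_sed and 136 CPM in S, against 491 CPM in HFD_EXE, 1133 CPM in HFD_sed and 457 CPM in S (log2 fold change -1.40, SE 0.13, adjusted p = 5.29e-05, edgeR). Kit-positive cells were lower in each library for both genes. HFD_sed members with 1 Kit UMI (56 of 90) were also set beside the Kit-negative, Ltbp4-negative cells of that library. Ntn4 was at 705 CPM in these members against 724 CPM, Msr1 at 236 against 302 CPM and Wnt2 at 164 against 124 CPM. The Poisson intervals of each pair overlapped, so these genes did not separate most HFD_sed members from that class.

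Efnb2, the ephrin that marks arterial and portal-side endothelium, fell (log2 fold change -1.15, SE 0.13, adjusted p = 0.000234, edgeR), and so did Dll4 (log2 fold change -0.97, SE 0.12, adjusted p = 0.000741, edgeR). Falls were also called for Adam23 (log2 fold change -0.54) and Cd36, a fatty acid translocase (-0.65), and for Chst2 (-0.62), Jag1 (-1.02) and Efna1 (-0.49). The exception was Ltc4s, leukotriene C4 synthase, which is on the portal list but rose (log2 fold change 1.03, SE 0.12, adjusted p = 0.000575, edgeR), being higher in Kit-positive cells in 2 of 3 libraries. Without the HFD_EXE library these calls were lost by the edgeR test for Plpp1 (adjusted p = 0.469), Dll4 (0.0506), Adam23 (0.198), Cd36 (0.665), Chst2 (0.107), Jag1 (0.176), Efna1 (0.796) and Ltc4s (0.102), and without S for Plpp1 (0.115) and Cd36 (0.271); their signs held. Vessel and vein markers moved as well: 6 of 12 fell (0.942% of all genes did), among them Vwf, Cd34 and Efnb2, which is also on the portal list. Vwf had a UMI in 45 of 887, 51 of 1081 and 14 of 473 Kit-negative, Ltbp4-positive cells.

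**Figure D1:**
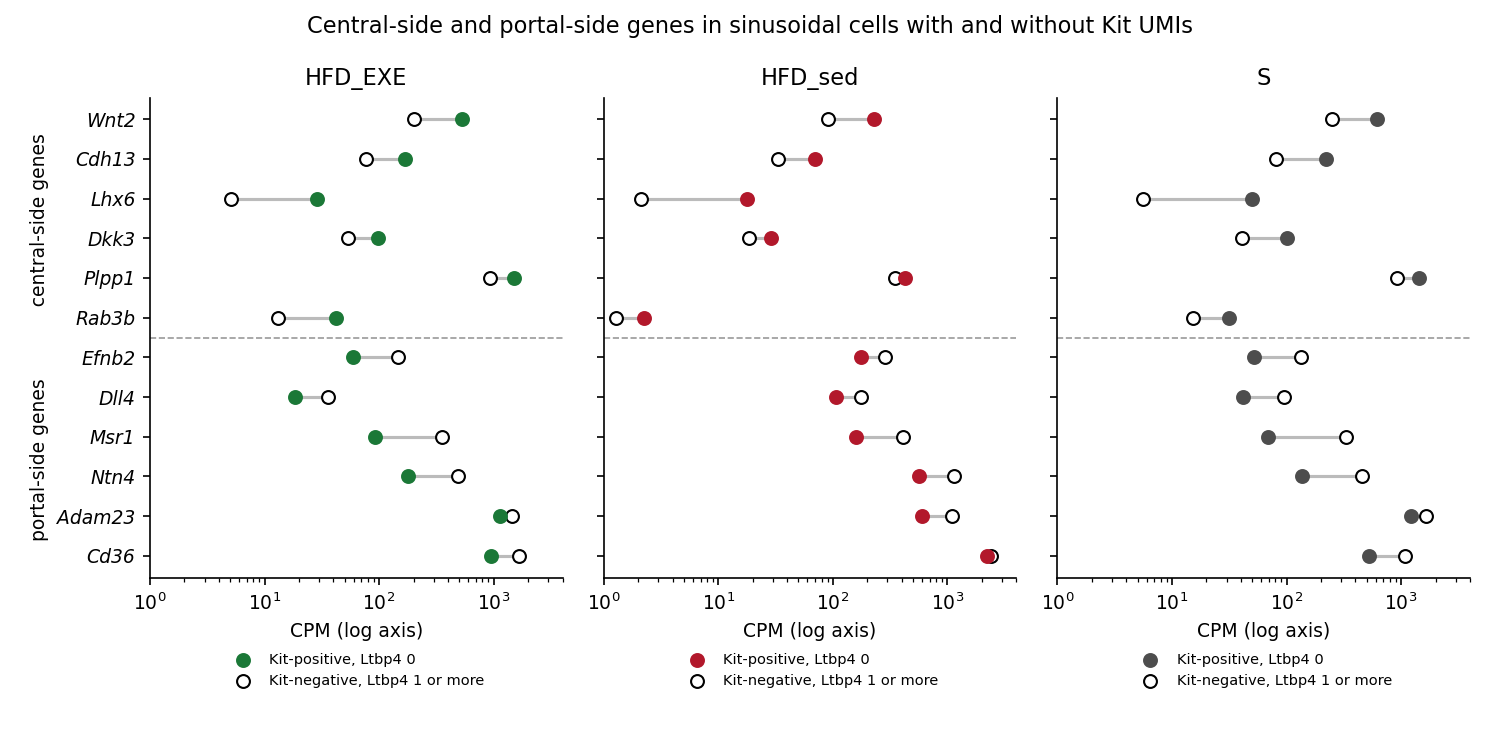
Level in CPM (logarithmic axis) of 6 central-side and 6 portal-side genes that passed the test, in Kit-positive cells (filled) and Kit-negative, Ltbp4-positive cells (open), with 1 panel for each library. Filled points lie to the right of open points for the central-side genes and to their left for the portal-side genes in all 3 panels, with the smallest gap for Cd36 in HFD_sed.

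Among genes outside the zonation lists, Plppr5, a phospholipid phosphatase-related membrane protein, was at 56.1 CPM in HFD_EXE, 49.3 CPM in HFD_sed and 55.9 CPM in S in Kit-positive cells, against 14.2 CPM in HFD_EXE, 24.9 CPM in HFD_sed and 11.9 CPM in S in Kit-negative, Ltbp4-positive cells (log2 fold change 1.79, SE 0.20, adjusted p = 0.000234, edgeR). It was higher in Kit-positive cells in each library. Lgals1, a galactoside-binding lectin, rose (log2 fold change 1.37, SE 0.11, adjusted p = 2.4e-05, edgeR), and so did Jup, a junctional plakoglobin (log2 fold change 1.23), and Lfng, a glycosyltransferase that modifies Notch (1.17). Sema3d, a secreted semaphorin, rose by 1.43 on the log2 scale, and Slco3a1 and Olfm1 by 0.90 and 0.81. Dcn, a proteoglycan of stromal cells (log2 fold change -2.53), Mecom, a zinc finger transcription factor (-1.77), and Hmcn1, a matrix hemicentin (-1.36), fell. Igfbp5, a binding protein of insulin-like growth factors, had the largest fall of the named genes, at 0.496 CPM in HFD_EXE, 2.24 CPM in HFD_sed and 1.86 CPM in S on 2, 1 and 3 UMIs, against 81.1 CPM in HFD_EXE, 13.7 CPM in HFD_sed and 289.7 CPM in S in Kit-negative, Ltbp4-positive cells. C3 (-1.57) and Car3 (-1.32) fell too, but stood at -0.09 and -0.20 among cells of 3000 to 8000 UMIs. Of 69 list and named genes called, 16 were called again without each library in turn: Wnt2, Cdh13, Lhx6, Dkk3, Plppr5, Lgals1, Jup, Lfng and Slco3a1 among those that rose, and Msr1, Ntn4, Efnb2, Efnb1, Mecom, Dcn and Ly6a among those that fell. Without HFD_EXE, Sema3d (adjusted p = 0.0529), Olfm1 (0.357), Hmcn1 (0.129) and Car3 (0.991) no longer passed the edgeR test, nor did C3 without S (0.0845). Akr1c6, a hepatic ketosteroid reductase, changed sign without HFD_EXE.

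Within the members, Wnt2 and Msr1 also differed with the count of Kit UMIs. Wnt2 was at 379, 494 and 600.2 CPM in HFD_EXE members with 1, 2 and at least 3 Kit UMIs, at 164, 304 and 319 CPM in HFD_sed and at 545, 666 and 626 CPM in S. Msr1 ran the other way, at 138, 109 and 68.9 CPM in HFD_EXE, 236, 52.1 and 73.6 CPM in HFD_sed and 98.9, 89.3 and 55.3 CPM in S. Kit UMIs chose the members and also follow depth (medians of 2582.5, 3810 and 5416 UMIs per cell in HFD_EXE), so this is a description. At equal Kit UMIs, Wnt2 stayed lower, and Ntn4 higher, in HFD_sed than in both other libraries. Msr1 was highest in HFD_sed at 1 Kit UMI and lowest there at 2, and at 3 or more the intervals overlapped. Dll4 was at 164 CPM in HFD_sed and 44.9 CPM in S at 1 Kit UMI. At 2 it was at 26.1 and 32.5 CPM, and at 3 or more at 49.1 and 42.7 CPM, on 3 and 4 UMIs in HFD_sed.

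**Figure D2:**
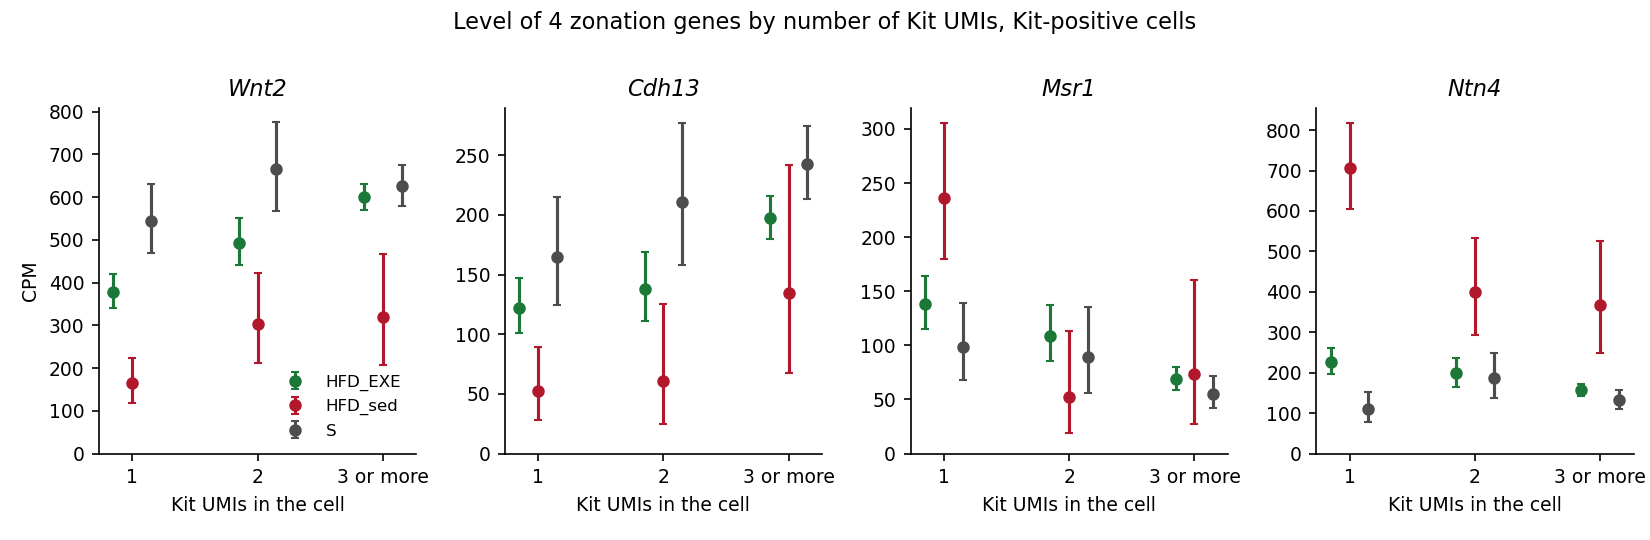
Level in CPM of Wnt2, Cdh13, Msr1 and Ntn4 in members with 1, 2 or at least 3 Kit UMIs, by library, with exact Poisson 95% intervals. Wnt2 and Cdh13 are lowest and Msr1 and Ntn4 highest in members with 1 Kit UMI in HFD_EXE and HFD_sed, and the HFD_sed points rest on 56, 21 and 13 cells.

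Between libraries, a call of higher or lower needed a CPM ratio of at least 1.5 in that direction and an exact interval that excluded 1, over genes with at least 50 UMIs in both libraries together. The 3 comparisons share libraries, since HFD_sed stands in 2 of them and S in 2, so that their results are not independent. Gene lists also share members, so their counts are not independent either. Among other overlaps, Dll4 counts on the portal-side, angiocrine and Notch lists, and Bmp6 on the angiocrine, BMP and iron lists. Wnt2 is on the central-side and angiocrine lists, Angpt2 and Esm1 on the angiocrine and tip lists, and Cxcl9 on the interferon and chemokine lists. Gja4 of the central-side list and Efnb2 of the portal-side list are also on the vessel and vein list. Thbd is on the central-side and flow lists, Cyp26b1 on the central-side and retinoid lists, and Dkk3 on the central-side and Wnt lists. Ltc4s is on the portal-side and eicosanoid lists, and Ptgs1 and Slco2a1 on the flow and eicosanoid lists. TMM scaling, which sets the typical gene equal, shifted every log2 ratio of HFD_sed over S by -0.14 and of HFD_EXE over HFD_sed by 0.13. It moved the share of calls that were higher to 40.4% for HFD_sed over S, against 57.6% without it, and to 69.7% for HFD_EXE over HFD_sed, against 52.8%. RNA of other cells also differed between libraries: in members the hepatocyte markers summed to 1833, 1027 and 2617 CPM, the B cell markers to 1122, 412.5 and 95.0 CPM and the erythroid markers to 1712, 103 and 445 CPM in HFD_EXE, HFD_sed and S. The part of this RNA in the results below was not tested. Free RNA was estimated at 6.92%, 9.03% and 5.13% in HFD_EXE, HFD_sed and S. This is the median, over 97, 92 and 103 markers of other cells, of the level in members as a share of that outside the gate. It is a rough value, since lists differed: in HFD_EXE neutrophil markers summed to 213 CPM in members against 7933 CPM outside, and hepatocyte markers to 1833 against 5465 CPM.

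Central-side genes were low in HFD_sed members. Of 11 measured, 10 were lower in HFD_sed than in S, where 9.62% of all 6051 genes were lower, and 1 was higher, where 13.1% were (median log2 ratio -1.67, against 0.08 over all genes). Against the same HFD_sed cells, 9 of 11 were higher in HFD_EXE, where 8.84% of 8313 genes were higher, and 1 was lower, where 7.92% were (median 1.76, against -0.01). Between HFD_EXE and S, 2 were higher and 2 lower (9.44% and 5.8% of 8850 genes were), with a median of 0.08, against 0.07. The levels put HFD_EXE near S for most of the list and HFD_sed apart from both.

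Wnt2, given above by library, was lower in HFD_sed than in S at a ratio of 0.372 (95% interval 0.3 to 0.456), and higher in HFD_EXE than in HFD_sed at 2.32 (95% interval 1.91 to 2.86). Plpp1 was at 1511 CPM in HFD_EXE, 430.4 CPM in HFD_sed and 1432 CPM in S (HFD_sed over S 0.301, 95% interval 0.258 to 0.348). Gja4, the gap junction protein connexin 37, was at 649 CPM in HFD_EXE, 31.4 CPM in HFD_sed and 240.3 CPM in S (HFD_EXE over HFD_sed 20.7, 95% interval 12.3 to 37.9). Thbd, thrombomodulin, was at 714 CPM in HFD_EXE, 71.7 CPM in HFD_sed and 199 CPM in S (HFD_EXE over S 3.58, 95% interval 3.19 to 4.03). Gja4 and Thbd were the 2 central genes that were higher in HFD_EXE than in S as well.

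Cyp26b1, which degrades retinoic acid, was at 668 CPM in HFD_EXE, 105 CPM in HFD_sed and 1292 CPM in S, lower in both other libraries than in S (HFD_EXE over S 0.517, 95% interval 0.488 to 0.548, HFD_sed over S 0.0815, 95% interval 0.0597 to 0.109). Fabp4, a fatty acid carrier of the central side, went against the list, at 878 CPM in HFD_EXE, 4189.5 CPM in HFD_sed and 607 CPM in S (HFD_sed over S 6.9, 95% interval 6.38 to 7.46). It had a UMI in 86 of 90 HFD_sed members, so no small group of cells carried it. The same order of libraries stood in Kit-negative, Ltbp4-positive cells, with Fabp4 at 762, 3439 and 336 CPM and Plpp1 at 927, 352 and 913 CPM. There, 7 of 10 central-side genes were lower in HFD_sed than in S (7.05% of all measured genes of that class were), and whether the 2 classes differ in this was not tested.

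Portal-side genes were split in HFD_sed. Of 11 measured, 6 were higher and 2 lower in HFD_sed than in S (13.1% and 9.62% of all genes were). In HFD_EXE, 3 were higher and 7 lower than in HFD_sed (8.84% and 7.92% of all genes were). Efnb2 was at 59.3 CPM in HFD_EXE, 175 CPM in HFD_sed and 52.2 CPM in S in members (HFD_sed over S 3.35, 95% interval 2.43 to 4.62), and Ntn4, given above, stood at 4.15 (95% interval 3.45 to 5.0). Dll4 was at 18.4 CPM in HFD_EXE, 108 CPM in HFD_sed and 41.6 CPM in S, lower in HFD_EXE than in S at a ratio of 0.441 (95% interval 0.313 to 0.623). By Kit UMIs, given above, the Dll4 intervals of HFD_sed and S were apart in members with 1 Kit UMI only. Adam23 and Ltc4s went the other way, with Adam23 at 1134 CPM in HFD_EXE, 599 CPM in HFD_sed and 1223 CPM in S. The list's median log2 ratio of HFD_sed over S, 1.13, was -0.09 with at least 2 Kit UMIs required (4 higher, 2 lower) and 0.02 with genes of at least 20 UMIs measured (6 higher, 2 lower).

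Secreted factors through which sinusoidal cells act on their neighbours were measured next. Hgf, a hepatocyte mitogen, was at 179 CPM in HFD_EXE, 22.4 CPM in HFD_sed and 135 CPM in S (HFD_EXE over HFD_sed 7.98, 95% interval 4.31 to 16.7). Bmp2, which sets hepcidin in hepatocytes, was at 3075 CPM in HFD_EXE, 1215 CPM in HFD_sed and 2242 CPM in S, and Bmp6, which does the same, was at 114 CPM in HFD_EXE, 150.2 CPM in HFD_sed and 350.2 CPM in S. Bmp2 was lower in HFD_sed than in both other libraries, whereas Bmp6 was lower in both HFD libraries than in S (HFD_EXE over S 0.326, 95% interval 0.288 to 0.37).

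Kitl, the ligand of Kit, was at 142 CPM in HFD_EXE, 62.8 CPM in HFD_sed and 138 CPM in S (HFD_sed over S 0.455, 95% interval 0.296 to 0.676), lowest in HFD_sed. Kit itself chose the members, so its level in them is not set beside that of Kitl. Inhbb, an activin subunit, was at 496 CPM in HFD_EXE, 137 CPM in HFD_sed and 124 CPM in S (HFD_EXE over S 3.99, 95% interval 3.45 to 4.64). Angpt2, an antagonist of Tie2 signalling, was at 10.7 CPM in HFD_EXE, 238 CPM in HFD_sed and 10.6 CPM in S (HFD_sed over S 22.5, 95% interval 13.4 to 40.1), and Pdgfb, which recruits pericytes, was at 7.19 CPM in HFD_EXE, 170.4 CPM in HFD_sed and 25.5 CPM in S (HFD_sed over S 6.69, 95% interval 4.52 to 10.0). The angiocrine list as a whole held 4 higher and 5 lower genes of 11 for HFD_sed over S (13.1% and 9.62% of all genes). It held 5 higher and 4 lower for HFD_EXE over HFD_sed (8.84% and 7.92% of all genes). Among receivers of Wnt signals, Fzd4 was at 500.3 CPM in HFD_EXE, 204 CPM in HFD_sed and 193 CPM in S (HFD_EXE over S 2.59, 95% interval 2.3 to 2.93). On that list, 5 of 9 genes were higher in HFD_EXE than in HFD_sed, with 1 lower (8.84% and 7.92% of all genes were).

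Some genes of endothelial tip cells, the leading cells of a sprout, were highest in HFD_sed. Depp1, a target of FOXO transcription factors, had 47 UMIs in HFD_EXE, 297 in HFD_sed and 0 in S (11.7 and 666 CPM in HFD_EXE and HFD_sed). Against a floor of 3 UMIs in the S library, it was at least 357-fold higher in HFD_sed. Esm1, a secreted proteoglycan of tip cells, had 15, 224 and 0 UMIs in the same order (3.72 and 502 CPM), at least 269.5-fold higher in HFD_sed than in S. These UMIs were spread over 59 of 90 HFD_sed members for Depp1 and 47 for Esm1. Kit-negative, Ltbp4-positive cells held 12.0, 589 and 0.741 CPM of Depp1 and 36.5, 566 and 33.7 CPM of Esm1, with HFD_sed highest there as well.

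Of 10 measured tip and VEGF genes, 4 were higher in HFD_sed than in S and 1, the VEGF co-receptor Nrp1, was lower (13.1% and 9.62% of all genes were). Of 11, 1 was higher and 6 were lower in HFD_EXE than in HFD_sed (8.84% and 7.92% of all genes were). Adm, adrenomedullin, was at 72.4 CPM in HFD_EXE, 137 CPM in HFD_sed and 23.6 CPM in S, and Nrp1 was at 1319 CPM in HFD_EXE, 711 CPM in HFD_sed and 1211 CPM in S. Ccn2, a target of the YAP and TGF-beta pathways, was at 63.7 CPM in HFD_EXE, 827 CPM in HFD_sed and 12.4 CPM in S (HFD_sed over S 66.6, 95% interval 42.5 to 110.3). These levels show HFD_sed highest for Adm and Ccn2 and lowest for Nrp1. Abcc9, a regulatory subunit of potassium channels, was at 18.4 CPM in HFD_EXE, 296 CPM in HFD_sed and 3.11 CPM in S (HFD_sed over S 95.3, 95% interval 39.8 to 298). Kcnj2, a potassium channel, was at 0.992 CPM in HFD_EXE, 141 CPM in HFD_sed and 1.24 CPM in S, on 2 UMIs in S (HFD_sed over S 114, 95% interval 30.2 to 959).

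**Figure D3:**
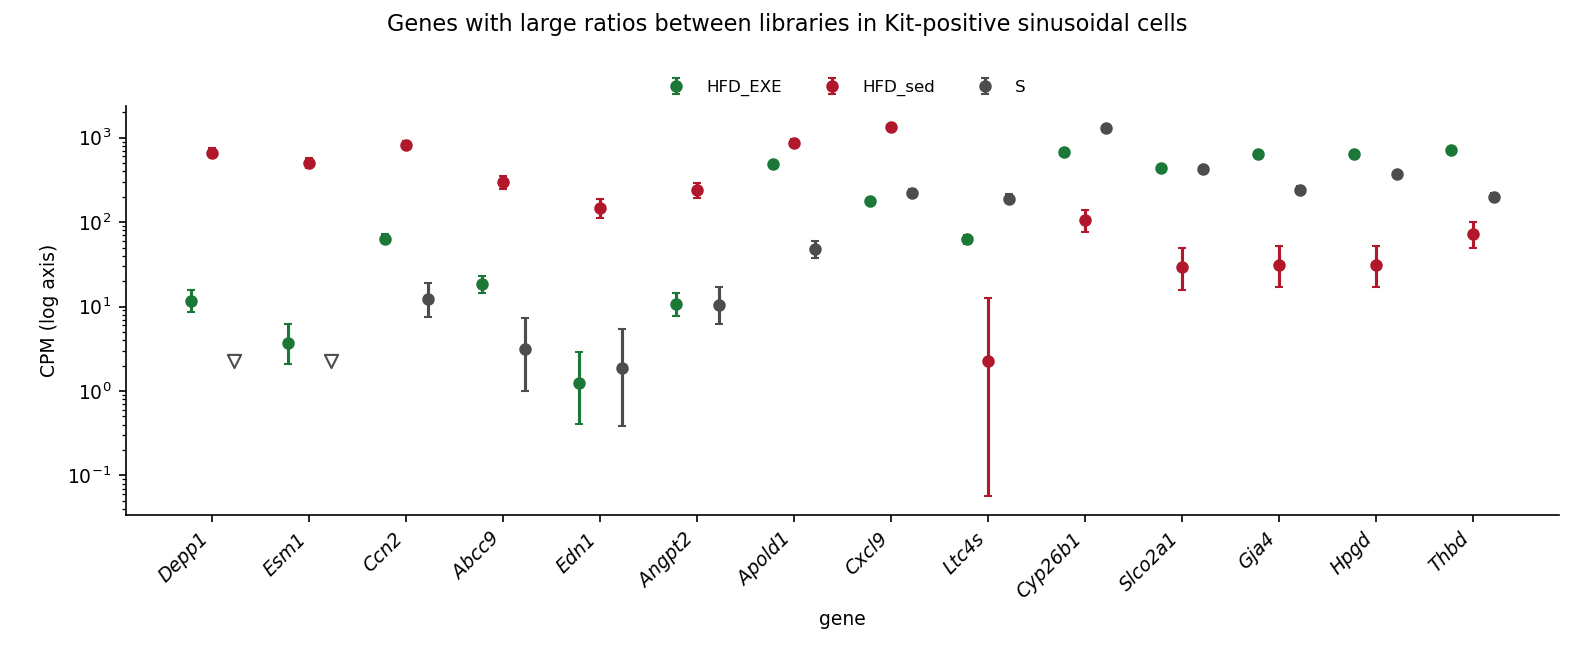
Level in CPM (logarithmic axis) of 14 named genes in Kit-positive cells of the HFD_EXE, HFD_sed and S libraries, with exact Poisson 95% intervals that cover counting error only. Open triangles mark the upper limit where a library had 0 UMIs, as S did for Depp1 and Esm1, both of which exceed 500 CPM in HFD_sed.

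Genes that respond to blood flow were split between HFD_sed and S, with 5 of 14 higher and 5 lower in HFD_sed (13.1% and 9.62% of all genes were). Klf2, the main flow-induced transcription factor, was at 2797 CPM in HFD_EXE, 1789 CPM in HFD_sed and 745 CPM in S, and Klf4 was at 1007 CPM in HFD_EXE, 572 CPM in HFD_sed and 245 CPM in S. Both were higher in HFD_EXE than in HFD_sed (HFD_EXE over HFD_sed 1.56, 95% interval 1.46 to 1.68) and higher in HFD_sed than in S (HFD_sed over S 2.4, 95% interval 2.19 to 2.63, the 2 ratios being those of Klf2), so S was the lowest library. Nos3, endothelial nitric oxide synthase, was at 188 CPM in HFD_EXE, 60.5 CPM in HFD_sed and 112 CPM in S (HFD_EXE over S 1.67, 95% interval 1.42 to 1.98), lowest in HFD_sed. Edn1, the vasoconstrictor endothelin 1, had 5, 65 and 3 UMIs (146 CPM in HFD_sed; ratio to S 78.2 95% interval 25.6 to 389), from 20 of 90 HFD_sed members. Ednrb, its type B receptor, was at 121 CPM in HFD_EXE, 17.9 CPM in HFD_sed and 5.59 CPM in S (HFD_EXE over S 21.6, 95% interval 11.3 to 47.6). Of the flow list, 8 of 16 genes were higher and 2 lower in HFD_EXE than in HFD_sed (8.84% and 7.92% of all genes were). Against S, 7 of 15 were higher and none lower in HFD_EXE (9.44% and 5.8% of all genes were).

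Ednrb was at 659 CPM in HFD_EXE, 14.1 CPM in HFD_sed and 158 CPM in S in Kit-negative, Ltbp4-positive cells. It fell in Kit-positive cells (log2 fold change -2.77, adjusted p = 0.000741 by edgeR, lower in 2 of 3 libraries). Of 12 measured genes of capillarisation, the change of sinusoids towards closed capillaries with a basement membrane, 5 were higher and 3 lower in HFD_sed than in S (13.1% and 9.62% of all genes were). Sparc, a matricellular protein, was at 886 CPM in HFD_EXE, 1955 CPM in HFD_sed and 910.4 CPM in S, and Col4a1, a basement membrane collagen, was at 477 CPM in HFD_EXE, 735 CPM in HFD_sed and 384 CPM in S. Col13a1, a transmembrane collagen, went the other way, at 301 CPM in HFD_EXE, 47.1 CPM in HFD_sed and 514 CPM in S (HFD_sed over S 0.0915, 95% interval 0.0564 to 0.141). Between HFD_EXE and S, Col13a1 was lower and none of 13 was higher (5.8% and 9.44% of all genes were).

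Many interferon-responsive genes were higher in HFD_sed members: 14 of 19 measured were higher than in S and none lower (median log2 ratio 0.94). Of all genes 13.1% were higher and 9.62% lower. In HFD_EXE 14 of 20 were lower than in HFD_sed with none higher (-1.07), where 7.92% and 8.84% of all genes were. Between HFD_EXE and S 2 of 20 were higher, near the 9.44% of all genes, and 3 lower, where 5.8% were. Isg15, a ubiquitin-like modifier, was at 42.4 CPM in HFD_EXE, 191 CPM in HFD_sed and 27.3 CPM in S (HFD_sed over S 6.97, 95% interval 4.79 to 10.3). Gbp3 and Gbp2, guanylate-binding GTPases, were at 29.3, 101 and 20.5 CPM and 53.3, 186 and 50.9 CPM in HFD_EXE, HFD_sed and S (HFD_sed over S 4.92, 95% interval 3.07 to 7.96 and 3.65 95% interval 2.66 to 5.02). Irf1, a transcription factor of the pathway, was at 72.7 CPM in HFD_EXE, 114 CPM in HFD_sed and 152 CPM in S, not called between HFD_sed and S. Without the cell that held the most UMIs of each gene, 12 of 19 were higher in HFD_sed than in S, with Ifit2 and Rsad2 lost. T and NK cell markers in members summed to 38.9, 155 and 39.7 CPM, against 1835, 5120 and 1552 CPM outside the gate, and their part in this list was not tested.

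Promoters of these genes were searched for the core of the interferon-stimulated response element, spelled GAAA, then any 2 bases, then GAAA, on both strands and with overlaps counted, in 300 bases (250 before and 50 after the gene start) from RefSeq on GRCm38.p6. Of the 14 called genes 13 had an entry, and 7 held the core in at least 1 window (Isg15, Gbp3, Gbp2, Ifit1, Bst2, Igtp and Rsad2). Of all 32851 promoter windows, counted singly, 3.44% did. The genes were taken from a list of interferon-responsive genes, and list genes that were not called were not searched. The count therefore describes the list, and whether it bears on the difference between libraries was not tested. For the other 6 (Cxcl9, Ifi44, Irf7, Oasl2, Ifit2 and Xaf1) no match says only that these letters are not in this window. The 3 with the largest lower bound of the ratio among genes with a match are printed on the strand of the gene, with the matched bases in capitals, to show the letters behind the count. Isg15 lies at chr4:156200769-156201068 (minus strand), with 3 overlapping matches 78 to 66 bases before the start. Gbp3 lies at chr3:142559794-142560093 (plus strand), with 2 overlapping matches of the reverse complement 45 to 39 bases before it. Gbp2 lies at chr3:142620413-142620712 (plus strand), with 1 match of the reverse complement 59 bases before it.
Isg15: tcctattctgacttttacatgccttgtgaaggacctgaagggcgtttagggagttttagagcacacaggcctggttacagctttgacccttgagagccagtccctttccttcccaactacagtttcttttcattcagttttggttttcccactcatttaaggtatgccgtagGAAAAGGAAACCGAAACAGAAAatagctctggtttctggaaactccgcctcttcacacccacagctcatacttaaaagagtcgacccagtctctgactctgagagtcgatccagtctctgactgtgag
Gbp3: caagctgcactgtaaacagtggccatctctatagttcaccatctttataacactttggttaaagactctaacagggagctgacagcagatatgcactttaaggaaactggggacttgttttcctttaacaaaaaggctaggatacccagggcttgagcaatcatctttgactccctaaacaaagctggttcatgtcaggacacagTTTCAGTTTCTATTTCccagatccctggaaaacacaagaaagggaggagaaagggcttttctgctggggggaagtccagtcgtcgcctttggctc
Gbp2: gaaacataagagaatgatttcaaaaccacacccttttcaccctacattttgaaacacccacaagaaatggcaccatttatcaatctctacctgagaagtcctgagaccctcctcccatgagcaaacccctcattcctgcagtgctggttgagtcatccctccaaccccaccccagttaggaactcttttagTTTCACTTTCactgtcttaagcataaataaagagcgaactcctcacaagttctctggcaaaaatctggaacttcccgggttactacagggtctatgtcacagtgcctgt

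Cxcl9 and Cxcl10, chemokines that draw T cells, were also highest in HFD_sed. Cxcl9 was at 176 CPM in HFD_EXE, 1334 CPM in HFD_sed and 223 CPM in S (HFD_sed over S 5.98, 95% interval 5.24 to 6.84), and it had a UMI in 240 of 877, 60 of 90 and 61 of 326 members. A single S cell held 255 of the 359 Cxcl9 UMIs of its library, and without the top cell of each library the levels were 151, 1196 and 65.0 CPM. Cxcl10 was at 96.2 CPM in HFD_EXE, 629.9 CPM in HFD_sed and 101 CPM in S, from 36 of 90 HFD_sed members. Ccl2, a monocyte attractant, reached 157 CPM in HFD_sed, but 1 cell held 56 of its 70 UMIs and the level without that cell was 31.8 CPM.

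Of the chemokine and inflammation list, 6 of 10 genes were higher and 2 lower in HFD_sed than in S (13.1% and 9.62% of all genes were). In HFD_EXE, 2 of 14 were higher and 7 lower than in HFD_sed (8.84% and 7.92% of all genes were). Il1a, an alarmin cytokine, was at 192 CPM in HFD_EXE, 204 CPM in HFD_sed and 47.8 CPM in S, higher in both HFD libraries (HFD_EXE over S 4.01, 95% interval 3.17 to 5.14). Ccl5, a T cell chemokine, was at 20.3, 98.6 and 13 CPM in members against 844, 3060.0 and 676 CPM outside the gate, and subtracting free RNA left 4 higher genes in this list. Ackr4, a scavenging chemokine receptor, was at 66.5 CPM in HFD_EXE, 6.72 CPM in HFD_sed and 55.3 CPM in S. Feedback genes of the NF-kB pathway included Nfkbia at 819 CPM in HFD_EXE, 383 CPM in HFD_sed and 297 CPM in S and Nfkbiz at 68.5 CPM in HFD_EXE, 193 CPM in HFD_sed and 40.4 CPM in S. Of that list, 6 of 11 were higher in HFD_sed than in S with none lower (13.1% and 9.62% of all genes were). Of these 6, Tnfaip3 and Birc3 were lost without each gene's top cell.

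Most immediate-early genes, which many stimuli and also tissue digestion induce, were lowest in S. Of 13 measured, 12 were higher in HFD_sed than in S with none lower (median log2 ratio 2.01), where 13.1% of all genes were higher. In HFD_EXE 9 were higher than in S with none lower (0.97), where 9.44% of all genes were higher. Against HFD_sed, 10 of 13 were lower in HFD_EXE, where 7.92% of all genes were. Egr1 was at 262 CPM in HFD_EXE, 964 CPM in HFD_sed and 101 CPM in S (HFD_sed over S 9.58, 95% interval 7.98 to 11.6). Nr4a1, an orphan nuclear receptor, was at 170.2 CPM in HFD_EXE, 325 CPM in HFD_sed and 21.1 CPM in S, and Atf3 was at 63.0 CPM in HFD_EXE, 91.9 CPM in HFD_sed and 6.83 CPM in S. Fosl2 was at 115 CPM in HFD_EXE, 253 CPM in HFD_sed and 29.2 CPM in S, and 12 of 14 list genes were also higher in HFD_sed than in S in Kit-negative, Ltbp4-positive cells (11.7% of all measured genes of that class were).

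Apold1, an endothelial early response gene, and Odc1, the entry enzyme of polyamine synthesis, were among the named genes of HFD_sed over S. Apold1 was at 493 CPM in HFD_EXE, 869.7 CPM in HFD_sed and 47.8 CPM in S (HFD_sed over S 18.2, 95% interval 14.2 to 23.5), and Odc1 was at 84.3 CPM in HFD_EXE, 395 CPM in HFD_sed and 22.4 CPM in S (HFD_sed over S 17.6, 95% interval 12.3 to 26.0). Of the glycolysis and hypoxia list, 8 of 16 genes were higher in HFD_sed than in S with none lower (13.1% and 9.62% of all genes were). In HFD_EXE, 8 of 17 were lower than in HFD_sed with 1 higher (7.92% and 8.84% of all genes were). Pgk1, a glycolytic kinase, was at 85.6 CPM in HFD_EXE, 152 CPM in HFD_sed and 75.8 CPM in S, and Bnip3, a mitophagy receptor induced by hypoxia, was at 43.2 CPM in HFD_EXE, 103 CPM in HFD_sed and 31.1 CPM in S. The exception was Ndrg1, another hypoxia-induced gene, at 717 CPM in HFD_EXE, 298 CPM in HFD_sed and 329 CPM in S, which was highest in HFD_EXE (HFD_EXE over HFD_sed 2.41, 95% interval 2.02 to 2.88).

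Genes of prostaglandin and leukotriene handling were low in HFD_sed members. Hpgd, which inactivates prostaglandins, was at 648 CPM in HFD_EXE, 31.4 CPM in HFD_sed and 372 CPM in S (HFD_EXE over HFD_sed 20.6, 95% interval 12.3 to 37.8). Slco2a1, which imports prostaglandins for that step, was at 435 CPM in HFD_EXE, 29.1 CPM in HFD_sed and 425 CPM in S (HFD_sed over S 0.0686, 95% interval 0.0363 to 0.118). Ltc4s had 252, 1 and 306 UMIs (62.5 CPM in HFD_EXE, 2.24 in HFD_sed and 190.0 in S), a ratio of 0.0118 (95% interval 0.000298 to 0.0662) for HFD_sed over S. Ptgs1, cyclooxygenase 1, was at 335 CPM in HFD_EXE, 139 CPM in HFD_sed and 383 CPM in S. It was higher in members than in Kit-negative, Ltbp4-positive cells (log2 fold change 0.68, SE 0.15, adjusted p = 0.0362, edgeR). That call was lost by the edgeR test without HFD_EXE (adjusted p = 0.62) and without S (0.0822). Of 5 measured genes of the list, 4 were lower in HFD_sed than in S (Hpgd, Slco2a1, Ltc4s and Ptgs1), where 9.62% of all genes were. In HFD_EXE 4 were higher than in HFD_sed, where 8.84% of all genes were. The exception, Lta4h, the leukotriene A4 hydrolase, was at 50.4 CPM in HFD_EXE, 42.6 CPM in HFD_sed and 52.2 CPM in S. Tbxa2r, the thromboxane receptor, was at 41.7 CPM in HFD_EXE, 6.72 CPM in HFD_sed and 88.2 CPM in S, on 3 UMIs in HFD_sed.

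Some other retinoid genes than Cyp26b1 were also lower in HFD_sed than in S. Dhrs3, a retinal reductase, was at 493 CPM in HFD_EXE, 258 CPM in HFD_sed and 588 CPM in S, and the receptor Rarg was at 71.2 CPM in HFD_EXE, 38.1 CPM in HFD_sed and 132 CPM in S. With Cyp26b1 included, 8 genes of the list were measured between HFD_sed and S. In HFD_sed 4 were lower (Cyp26b1, Rbp4, Rarg and Dhrs3) and 1 higher (9.62% and 13.1% of all genes were). In HFD_EXE 5 of 11, again with Cyp26b1, were higher than in HFD_sed with none lower (8.84% and 7.92% of all genes were). Genes of NRF2 and iron handling were lower in HFD_sed than in S in 6 of 14 cases with none higher (9.62% and 13.1% of all genes were). Ftl1, the ferritin light chain, was at 1069.8 CPM in HFD_EXE, 888 CPM in HFD_sed and 1984 CPM in S, and Slc40a1, the iron exporter ferroportin, was at 290.2 CPM in HFD_EXE, 256 CPM in HFD_sed and 459 CPM in S. Nqo1, an NRF2 target, had 41, 0 and 57 UMIs. Both iron genes were highest in S, and the Kupffer cell marker list, which includes Slc40a1, summed to 708, 758 and 1139 CPM in HFD_EXE, HFD_sed and S.

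Genes of BMP signalling were split in HFD_sed, while more called Notch genes were higher than lower there. Hes1, a Notch target, was at 238 CPM in HFD_EXE, 652 CPM in HFD_sed and 142 CPM in S (HFD_sed over S 4.61, 95% interval 3.86 to 5.5), and Nrarp, a Notch feedback gene, was at 29.8 CPM in HFD_EXE, 109.8 CPM in HFD_sed and 27.3 CPM in S. Smad7, an inhibitory Smad, was at 185 CPM in HFD_EXE, 583 CPM in HFD_sed and 216 CPM in S, and Smad6, another, was at 139 CPM in HFD_EXE, 276 CPM in HFD_sed and 108 CPM in S. Id3, also a BMP target, was at 399 CPM in HFD_EXE, 567 CPM in HFD_sed and 892 CPM in S, highest in S, whereas Id1 was called higher in HFD_sed than in S. The Notch list held 3 higher and 1 lower of 9 genes for HFD_sed over S, and the BMP and TGF-beta list 4 higher and 4 lower of 17. Of all genes 13.1% were higher and 9.62% lower, so the lower Notch count was near that share.

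**Figure D4:**
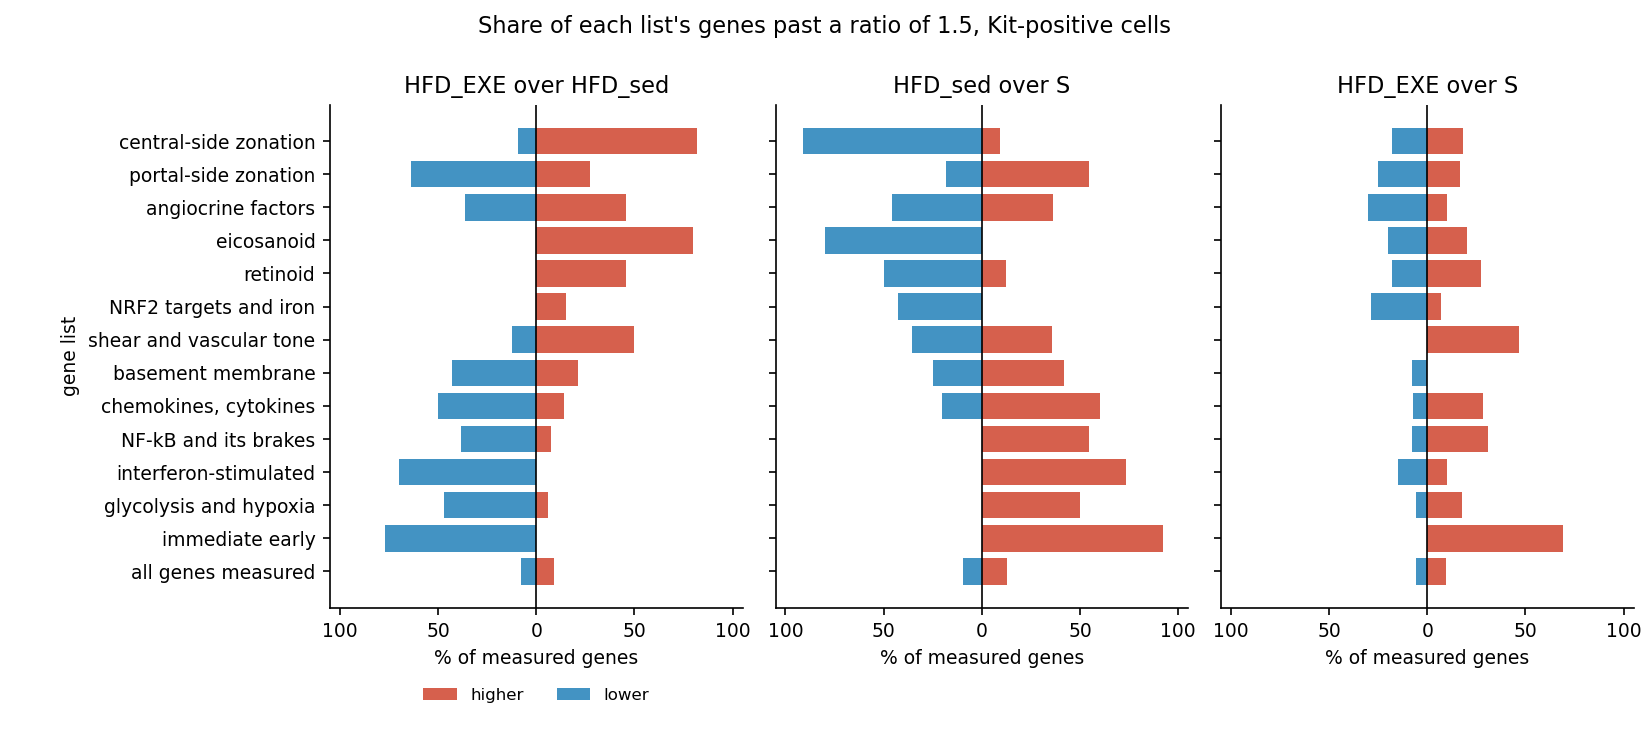
Share of measured genes called higher or lower (ratio of at least 1.5 with an interval that excludes 1) for 13 gene lists and for all genes, in the 3 comparisons between libraries. Immediate-early and interferon genes were called higher, and central-side and eicosanoid genes lower, in HFD_sed than in S, each at a share above that of all genes.

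HFD_EXE members also differed from S members in genes for which HFD_sed lay between them or near HFD_EXE. Adamts1, a secreted metalloprotease, was at 971 CPM in HFD_EXE, 560.4 CPM in HFD_sed and 133 CPM in S (HFD_EXE over S 7.31, 95% interval 6.36 to 8.42). Cdkn1a, the cell cycle inhibitor p21, was at 529.6 CPM in HFD_EXE, 179 CPM in HFD_sed and 70.8 CPM in S (HFD_EXE over S 7.48, 95% interval 6.19 to 9.11), and Dusp5, a phosphatase that dampens ERK, was at 151 CPM in HFD_EXE, 168 CPM in HFD_sed and 9.94 CPM in S (HFD_EXE over S 15.2, 95% interval 9.25 to 26.7). Rasd1, a glucocorticoid-induced small GTPase, was at 467 CPM in HFD_EXE, 143 CPM in HFD_sed and 70.2 CPM in S, and Ddit4, an inhibitor of mTORC1, was at 136 CPM in HFD_EXE, 31.4 CPM in HFD_sed and 16.8 CPM in S. In each of these genes S was the lowest library.

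Of 13 measured glucocorticoid and clock genes, 6 were higher and 1 was lower in HFD_EXE than in S (9.44% and 5.8% of all genes were). Fkbp5, a glucocorticoid receptor co-chaperone, was at 179 CPM in HFD_EXE, 82.9 CPM in HFD_sed and 41.0 CPM in S (HFD_EXE over S 4.36, 95% interval 3.39 to 5.7). Per1, a clock gene, was at 87.6 CPM in HFD_EXE, 71.7 CPM in HFD_sed and 9.94 CPM in S, and Nr1d1, a clock repressor, was at 43.7 CPM in HFD_EXE, 31.4 CPM in HFD_sed and 4.97 CPM in S. The hour at which each liver was taken is not in the labels. Lower in HFD_EXE than in S were Zfp503, a transcriptional repressor, at 40.4 CPM in HFD_EXE, 182 CPM in HFD_sed and 265 CPM in S (HFD_EXE over S 0.152, 95% interval 0.127 to 0.183), Lpar6, a lysophosphatidic acid receptor, at 88.6 CPM in HFD_EXE, 253 CPM in HFD_sed and 309.9 CPM in S, and Sox18, an endothelial transcription factor, at 72.2 CPM in HFD_EXE, 130.0 CPM in HFD_sed and 232 CPM in S. For these 3 genes HFD_sed lay between HFD_EXE and S.

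The other genes with the largest differences between libraries had varied roles. Jam2, a junctional adhesion molecule, was at 341 CPM in HFD_EXE, 60.5 CPM in HFD_sed and 338 CPM in S (HFD_sed over S 0.179, 95% interval 0.117 to 0.263). Slc26a10 was at 124 CPM in HFD_EXE, 8.97 CPM in HFD_sed and 129.8 CPM in S, and Ifitm10 and the odorant receptor gene Olfr1396 were at 43.9, 2.24 and 53.4 CPM and 76.4, 4.48 and 59.6 CPM in HFD_EXE, HFD_sed and S. These 4 were lowest in HFD_sed, as was Il13ra2, the decoy receptor of interleukin 13, with 216 UMIs in HFD_EXE, 0 in HFD_sed and 42 in S. Slco2b1, an organic anion transporter, was at 17.1 CPM in HFD_EXE, 13.4 CPM in HFD_sed and 66.4 CPM in S (HFD_EXE over S 0.258, 95% interval 0.187 to 0.352). Ier5l was at 24.3 CPM in HFD_EXE, 24.7 CPM in HFD_sed and 74.5 CPM in S, and Cdc42ep3, an effector of the GTPase Cdc42, was at 22.6 CPM in HFD_EXE, 38.1 CPM in HFD_sed and 70.8 CPM in S. These 3 were highest in S, as was the transcript annotated as Mir6236 (1138 CPM in HFD_EXE, 928 CPM in HFD_sed and 4502 CPM in S), whose level outside the gate was also highest in S (710.4, 557 and 2201 CPM). Itprip and Jdp2, the second a repressor of AP-1, were highest in HFD_EXE, at 316 CPM in HFD_EXE, 121 CPM in HFD_sed and 57.1 CPM in S for Itprip and 92.0 CPM in HFD_EXE, 47.1 CPM in HFD_sed and 9.32 CPM in S for Jdp2. Clu, clusterin, was at 199 CPM in HFD_EXE, 22.4 CPM in HFD_sed and 38.5 CPM in S, but 1 HFD_EXE cell held 297 of its 804 UMIs, and at 2000 UMIs per cell its log2 ratio was -0.23 for HFD_EXE over HFD_sed and -0.38 for HFD_EXE over S.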

How the data were processed

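Single-cell libraries of liver non-parenchymal cells were analysed, 1 per group. Per the file headers and the submitters' processing notes, the authors made the deposited UMI counts with Cell Ranger 6.1.2 against GRCm39, and the matrices hold raw counts per gene and barcode (counting options: not given in the sources used here). Of 4 groups in the series, 3 libraries were used.

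Cells were filtered and members chosen by the rule in the text, with Python 3.11.15, NumPy 2.4.6, SciPy 1.17.1 and pandas 2.3.3. Counts were summed over cells and given as counts per 1000000 UMIs (CPM). Ratios between libraries carry exact conditional binomial 95% intervals, levels exact Poisson ones and shares Clopper-Pearson ones; all cover counting error only. Genes at 0 UMIs in a library were set to a floor of 3 counts, per library. Kit-positive and Kit-negative sums (6 in all) were tested with edgeR 4.0.16 in R 4.3.3 (quasi-likelihood, genes with at least 10 UMIs in at least 3 sums, library as block); both classes come from the same library, and deviations of its sums correlated at 0.444, 0.518 and 0.516 in HFD_EXE, HFD_sed and S. DESeq2 1.42.0 was an alternative. Doublet scores came from Scrublet in Scanpy 1.11.5; the top 3% were kept, and left out as an alternative. The edgeR and ratio steps were tested on simulated data.

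Named genes were, per comparison and direction, the 10 with the bound of the ratio farthest from no change at 50 CPM or more in the higher library, or, for Kit, the 10 largest called changes alike in 3 of 3 libraries; up to 4 per list and exceptions were added. Genes of the hepatocyte and erythroid lists, haemoglobin, ribosomal protein, mitochondrial, sex-linked, antigen receptor and unnamed genes were left out. The members and gene lists were chosen with earlier results of these data known. The contrast with Ltbp4-positive cells and the omission of each gene's top cell were chosen after seeing the data. Promoters came from RefSeq on GRCm38.p6, a build other than that of the counts, and were matched by symbol.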

Additional observations from a re-analysis of the deposited data

Results flagged for a closer look

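For 10 genes the ratio between libraries had opposite signs in Kit-positive cells and in Kit-negative, Ltbp4-positive cells, past 1.5 in both; the difference was not tested for any of them. For HFD_sed over S, the log2 ratio in Kit-positive cells was -2.52 for Hba-a1 (1.27 in Kit-negative, Ltbp4-positive cells), -2.70 for Hba-a2 (1.32), -1.68 for Hbb-bs (1.02) and -3.10 for Hbb-bt (1.06). All 4 are haemoglobin genes of red cells, and their calls in Kit-positive cells were lost without the top cell of each library. For Hbb-bs a single S cell held 265 of 324 UMIs.

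For HFD_EXE over HFD_sed, the log2 ratio of Hspb1, a small heat shock protein, was -1.05 in Kit-positive cells (0.72 in Kit-negative, Ltbp4-positive cells). For HFD_EXE over S, it was 1.58 for Ackr3, a scavenging chemokine receptor (-1.22). The hepatocyte genes Apoa2 (-1.18 against 1.51), Apoc1 (-0.91 against 1.19), Apoc3 (-1.05 against 1.35) and Hpd (-0.74 against 1.40) were lower in HFD_EXE than in S in Kit-positive cells and higher in Kit-negative, Ltbp4-positive cells. The hepatocyte markers as a whole summed to 1833 CPM in HFD_EXE and 2617 CPM in S in Kit-positive cells, and to 4939 CPM and 2300 CPM in Kit-negative, Ltbp4-positive cells.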

How the results depend on the processing

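Of the alternatives to counts and shares, 77 stayed within their limit and 31 moved. Of list medians, 988 stayed, 34 moved and 3 reversed. Of named genes between libraries, 589 values stayed and 2 reversed, and in the Kit contrast 252 stayed, 75 lost their call and 3 reversed. With the rule applied again at 2000 UMIs per cell, the shares of members in the gate were 27.9%, 6.11% and 23.3% in HFD_EXE, HFD_sed and S. With no minimum of UMIs per gene, 1311 genes were higher in HFD_sed than in S, 1052 lower in HFD_EXE than in HFD_sed and 800 lower in HFD_EXE than in S.

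The Kit contrast against Ltbp4-negative cells (61 higher, 467 lower by edgeR) held 0 and 0 genes with no replicate block (117 and 495 at an unadjusted p under 0.05; 8 and 182 by DESeq2 with the block). It held 127 higher genes with no filter on low counts, 105 higher with at least 2 Kit UMIs, 9 higher and 107 lower among cells of 3000 to 8000 UMIs, 69 lower at 2000 UMIs per cell and 229 lower against Kit-negative cells whatever their Ltbp4. Leaving out each library in turn gave 14 (without HFD_EXE) to 303 (without HFD_sed) higher and 149 (without HFD_EXE) to 664 (without HFD_sed) lower genes. Against Ltbp4-positive cells, 108 were lower, 62 among cells of 3000 to 8000 UMIs, 70 with Vwf at 0 UMIs in both classes, 0 higher and 0 lower with no replicate block (82 and 129 at an unadjusted p under 0.05), and 12 to 220 higher and 15 to 289 lower without each library in turn (126 lower without S). The cause of these moves was not tested.

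The medians that reversed were the portal-side list for HFD_sed over S with at least 2 Kit UMIs (-0.092), and, with no minimum, Wnt reception (-0.0060) and eicosanoid genes (-0.59) for HFD_EXE over HFD_sed. At 2000 UMIs per cell the log2 values of Clu were -0.23 (HFD_EXE over HFD_sed) and -0.38 (HFD_EXE over S), and in the Kit contrast those of Gbp2 were -0.091, of Adm -0.011 and of Akr1c6 0.044. TMM scaling left 1 higher and 1 lower NF-kB gene for HFD_EXE over HFD_sed, in place of 1 and 5. With 90 members, HFD_sed limits every comparison it enters, and 1 library per group leaves spread between animals unmeasured.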
